A study of Mus musculus with 48 samples.

Results

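The insulin-like growth factor (IGF) system was followed through whole-skin RNA-seq of C57BL/6 mice as 9 genes: the ligands Igf1 and Igf2, the receptor Igf1r, and the binding proteins Igfbp2, Igfbp3, Igfbp4, Igfbp5, Igfbp6 and Igfbp7. They were chosen by gene name, and each was found once among the 46983 genes of both expression tables. The first table held 43 libraries of chin, ventral and dorsal skin at 6 labelled stages of the hair cycle, which gave 18 groups of 2 or 3 libraries. The stages were early, mid and late anagen (growth), catagen (regression), and telogen (rest), the last labelled as refractory or competent. In the paper competent telogen is the first telogen and refractory telogen the early second one. The second held 7 libraries, of telogen ear skin (2, numbered 2 and 3 in the table), of cartilage and muscle from the ear (3, called the complex below), and of competent telogen dorsal skin (2). The dorsal columns were the same in both tables, so that 48 libraries were distinct. All mice were of the same strain and no library carried a transgene, mutation or treatment by its labels, which give no age. Neither the labels nor the methods say whether libraries of a group came from separate mice, so the p-values measure the spread between libraries, which may be technical.

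IGF1 and IGF2 are secreted peptides that signal through the receptor tyrosine kinase IGF1R, and the binding proteins hold them in extracellular fluid and matrix, where they lengthen the life of the ligand or keep it from the receptor. IGFBP2 to IGFBP6 bind IGFs with high affinity, whereas IGFBP7 is a related matrix protein of low affinity. In skin, dermal cells are the best known source of IGF1, and the receptor is found on keratinocytes, so that the ligand is a classical mesenchymal signal to the growing hair follicle (HF).

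The stage names below are those of the labels, and the marker genes of the libraries went against several of them. The summed level of 5 genes of cycling cells (Mki67, Top2a, Ccnb1, Cdk1 and Birc5) was 37.3 to 52.6 FPKM (fragment counts scaled for transcript length and library size) in chin refractory telogen, 48.5 to 49.7 in ventral and 41.4 to 42.6 in dorsal. It was 259 to 283 in chin, 281 to 329 in ventral and 143 to 150 in dorsal libraries labelled competent telogen, also a resting stage. Libraries labelled ventral early anagen, a growth stage, held 26.2 to 38.3, against 239 to 306 in chin and 392 to 396 in dorsal early anagen. The libraries labelled chin late anagen and dorsal competent telogen differed from each other by a chi-square per degree of freedom of 1.96 to 2.61 over 4 pairs. Replicates differed by 1.82 to 7.01 (median 2.82). The other libraries of different groups differed by 3.89 to 39.8 (median 17.5), so the lowest of them also lay in the range of replicates. The 2 ventral refractory telogen libraries differed by 11.4, more than any other replicates. Replicate 1 of ventral catagen is placed in ventral skin by its title and in rostral ear by its location label. The 6 genes of hair matrix and shaft summed to 10665 to 11546 FPKM in ventral catagen and 78.7 to 80.6 in telogen ear skin. No ear skin in catagen was sampled, so this sets the library apart from telogen ear skin but cannot exclude an ear origin. Dorsal catagen stood apart from the other catagen groups, with the cycling genes at 342 to 348 FPKM against 208 to 226 in chin and ventral catagen and the hair matrix and shaft genes at 3891 to 3917 against 10665 to 13491. The tests over all stages are therefore also given without these groups. Correlations over 13 group means leave out the groups labelled competent telogen, ventral early anagen and chin late anagen. Refractory telogen stays among the 13 groups. Its hair matrix and shaft genes summed to 2662 to 3723 FPKM in chin, 6401 to 9029 in ventral and 6770 to 7100 in dorsal skin. These values lay far above the 78.7 to 80.6 of telogen ear skin, so that label is not free of doubt either.

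**Figure D1:**
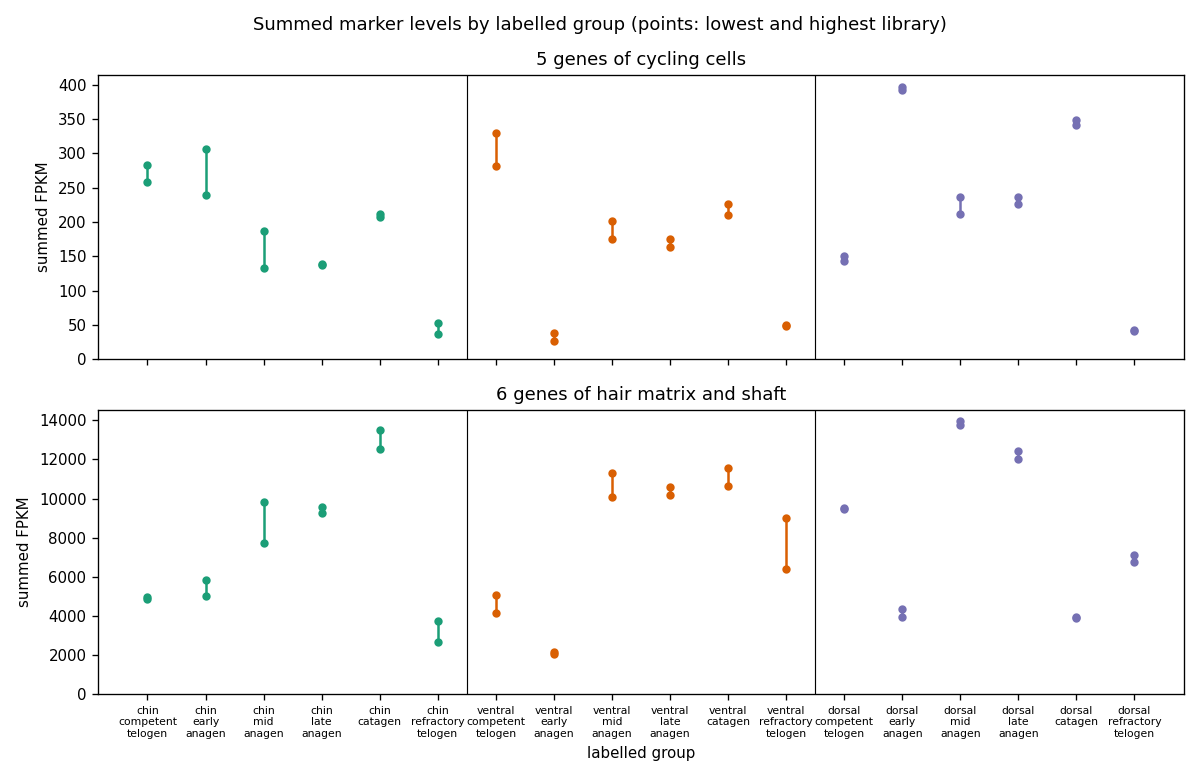
Summed FPKM of 5 genes of cycling cells (top) and 6 genes of hair matrix and shaft (bottom) in each of the 18 labelled groups, with the lowest and highest library of a group joined by a line. The libraries labelled ventral early anagen sit at 26.2 to 38.3 for the cycling genes, beside refractory telogen, and all 3 groups labelled competent telogen sit above refractory telogen.

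All 9 members depended on domain and stage together. In limma on log2(FPKM + 1), with Benjamini-Hochberg adjustment over all genes and a threshold of 0.05, the interaction of domain and stage passed for 9 of 9 members, with adjusted p from 8.381e-16 for Igfbp2 to 1.575e-05 for Igf1r. It also passed for 73.3% of the 21257 genes tested. Levels differed among stages for 9 of 9 members in chin (66.2% of genes), ventral (70.2%) and dorsal skin (68.5%). Without the groups labelled competent telogen and ventral early anagen, 9 members still showed the interaction, and 8 differed among stages in chin, 8 in ventral and 9 in dorsal skin. The exception in chin and ventral skin was Igf1r. Leaving out chin late anagen and dorsal competent telogen, or dorsal catagen, kept all 4 counts at 9. Without ventral catagen and ventral refractory telogen the counts among stages were also 9, and the interaction, then over the 4 stages that all domains had left, passed for 8 members, with an adjusted p of 0.3549 for Igfbp5.

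In absolute level the binding proteins exceeded the ligands in every group. The summed FPKM of the 6 binding proteins was 13.7 times the summed FPKM of Igf1 and Igf2 in dorsal competent telogen, the lowest of the 18 group means, and 45.5 times in ventral late anagen, the highest. Igfbp7 had the highest level of the 9 members in 45 of 48 libraries, and the other 3 were the ear cartilage/muscle libraries. It made up between 27.3% of the members' summed FPKM, in dorsal catagen, and 57.5%, in ventral competent telogen. As FPKM is per length, these levels can be set side by side between genes. In whole tissue, fewer cells that express a gene and less RNA per cell cannot be told apart, here and in all that follows.

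**Figure D2:**
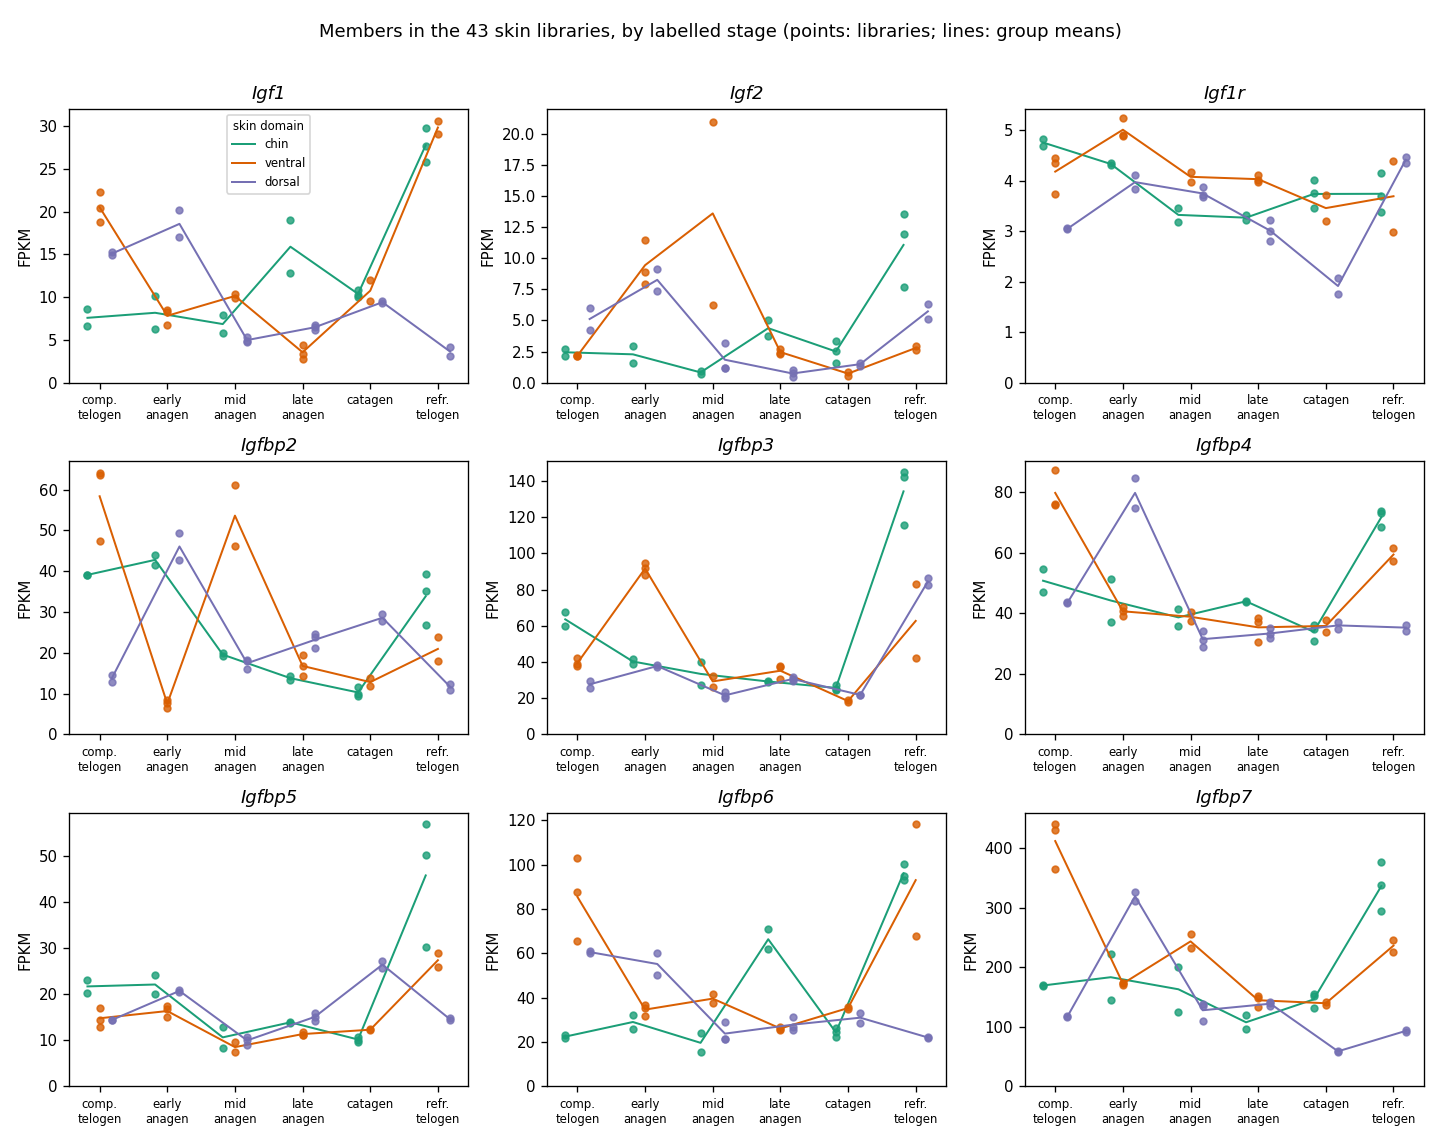
FPKM of each member (vertical axes, each from 0) against the 6 labelled stages for chin, ventral and dorsal skin. Points are libraries and lines join group means. Chin and ventral Igf1 end at 25.86 to 30.64 FPKM in refractory telogen and dorsal Igf1 at 3.12 to 4.15.

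Igf1, the ligand made locally in the dermis as well as in the liver, was highest in refractory telogen of chin and ventral skin and near its lowest in refractory telogen of dorsal skin. The chin libraries read 29.8, 25.86 and 27.74 FPKM, the ventral libraries 29.09 and 30.64, and the dorsal libraries 3.12 and 4.15. No dorsal library came near the others, and the dorsal level lay 2.64 log2 units below chin (SE 0.17, adjusted p = 1.291e-12) and 2.74 below ventral skin (SE 0.18, adjusted p = 7.191e-12). The median over all genes was -0.14 in the contrast of dorsal and chin skin, and relative to it the difference of Igf1 was -2.50. From catagen to refractory telogen Igf1 rose 2.68-fold in chin and 2.78-fold in ventral skin, where catagen libraries held 9.98 to 10.86 and 9.55 to 11.97 FPKM. It fell in dorsal skin over the same step, from 9.29 and 9.54 FPKM, by 1.18 log2 units (SE 0.18, adjusted p = 4.106e-06). The lowest group was ventral late anagen with 2.8, 4.45 and 3.4 FPKM, which overlapped dorsal refractory telogen. In dorsal skin the high levels came in the libraries labelled competent telogen (15.26 and 14.93) and early anagen (20.17 and 17), followed by a fall to 4.76 to 5.34 in mid anagen (log2 fold change -1.71, SE 0.17, adjusted p = 2.398e-09). Over the 18 groups the highest mean was 8.41 times the lowest, and 12 of 17 neighbours in the order overlapped in their libraries.

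The genes most like Igf1 over the 18 group means were Lpl, the lipase that frees fatty acids from lipoproteins (Pearson r = 0.98), and Nnmt, a nicotinamide methyltransferase (r = 0.97). Among the members the closest pair was Igf1 and Igfbp6 (r = 0.905, and also 0.905 over the 13 groups defined above). These are correlations over group means whose libraries also share depth and tissue makeup, and they are given as descriptions. The mean log2 level of 6 adipocyte genes (Adipoq, Plin1, Cidec, Lep, Fabp4 and Pparg) followed Igf1 with r = 0.94 (0.97 over 13 groups), and that of 5 macrophage genes with r = 0.87 (0.86). For the dermal fibroblast genes r was 0.61 (0.65), and for the dermal papilla genes it was 0.20 (0.21). The adipocyte genes summed to 1729 to 1927 FPKM in chin, 3050 to 3276 in ventral and 1091 to 1122 in dorsal refractory telogen, where 5 of the 6 reached 0.5 FPKM. Their part in the Igf1 difference was not tested.

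The promoter windows of Igf1 and Igfbp6 are shown because these members moved most alike, and that of Igfbp2 because its change between successive stages was the widest of the members, at -2.79 log2 units. That change rests on the libraries labelled ventral early anagen, and at other steps Igfbp2 moved by at most 1.67, less than the widest step of Igfbp3 (2.34). Each is the 250 bases before the start site in RefSeq, on build GRCm38.p6, written 5′ to 3′ on the gene's strand. Igf1 lies at chr10:87860861-87861110, Igfbp6 at chr15:102143936-102144185 and Igfbp2, of its 2 start sites the one farther upstream, at chr1:72824230-72824479, all on the plus strand. The Igf1 window lies inside the gene model given below, which starts farther upstream, at 87858265. Capitals mark 3 motifs, each searched on both strands. They are the GC box, which reads GGGCGG, the TATA box, which reads TATAAA, and the box named CCAAT after its letters. A box here is a match to these letters, at any distance from the start site. The matches marked TTTATA and ATTGG lie on the strand opposite to the gene.
Igf1: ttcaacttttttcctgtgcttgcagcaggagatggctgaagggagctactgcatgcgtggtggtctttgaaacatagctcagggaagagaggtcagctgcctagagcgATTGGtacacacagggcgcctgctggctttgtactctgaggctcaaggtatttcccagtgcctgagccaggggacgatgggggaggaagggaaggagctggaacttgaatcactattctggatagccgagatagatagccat
Igfbp6: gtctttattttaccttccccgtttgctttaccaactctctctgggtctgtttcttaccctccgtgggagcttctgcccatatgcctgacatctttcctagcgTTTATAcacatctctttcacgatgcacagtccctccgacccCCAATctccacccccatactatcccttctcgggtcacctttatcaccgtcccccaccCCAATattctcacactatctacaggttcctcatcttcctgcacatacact
Igfbp2: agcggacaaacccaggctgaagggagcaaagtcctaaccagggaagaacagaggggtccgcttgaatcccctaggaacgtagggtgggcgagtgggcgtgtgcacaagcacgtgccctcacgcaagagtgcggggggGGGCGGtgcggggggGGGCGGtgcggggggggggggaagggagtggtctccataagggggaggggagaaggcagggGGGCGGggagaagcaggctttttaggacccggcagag
The Igf1 window held 1 CCAAT box, the Igfbp6 window 2 CCAAT boxes and 1 TATA box, and the Igfbp2 window 3 GC boxes. Among 32851 promoter windows of the same length, 32.7% held a GC box, 12.4% a TATA box and 33.8% a CCAAT box. Over the 13 windows of the 9 members, a GC box was found for 4 members (Igf2, Igf1r, Igfbp2 and Igfbp7), a TATA box for 2 (Igfbp4 and Igfbp6) and a CCAAT box for 3 (Igf1, Igf2 and Igfbp6). The G+C content was 52.8% for Igf1, 49.6% for Igfbp6 and 67.2% for Igfbp2.

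Igfbp6, a binding protein with preference for IGF2, was like Igf1 highest in refractory telogen of chin and ventral skin. Chin libraries held 100.4, 93.02 and 94.89 FPKM, the ventral ones 67.68 and 118, and the dorsal ones 21.84 and 22.14. Dorsal refractory telogen was thus below every chin and ventral library, by 2.08 log2 units against chin (SE 0.18, adjusted p = 6.986e-10) and 1.98 against ventral skin (SE 0.20, adjusted p = 3.484e-08). The chin libraries also rose from 23.92 and 15.24 in mid anagen to 70.77 and 61.89 in late anagen, and fell back to 22.25 to 26.15 in catagen. That peak belonged to the libraries that could not be set apart from dorsal competent telogen, where Igfbp6 read 61.18 and 59.93. The pattern of Igfbp6 was closest to that of Hexa, a lysosomal hexosaminidase subunit (r = 0.96), and of C1ra, a complement protease (r = 0.95). The macrophage genes followed it with r = 0.92 (0.92 over 13 groups) and the adipocyte genes with r = 0.89 (0.90), and their part was not tested.

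**Figure D3:**
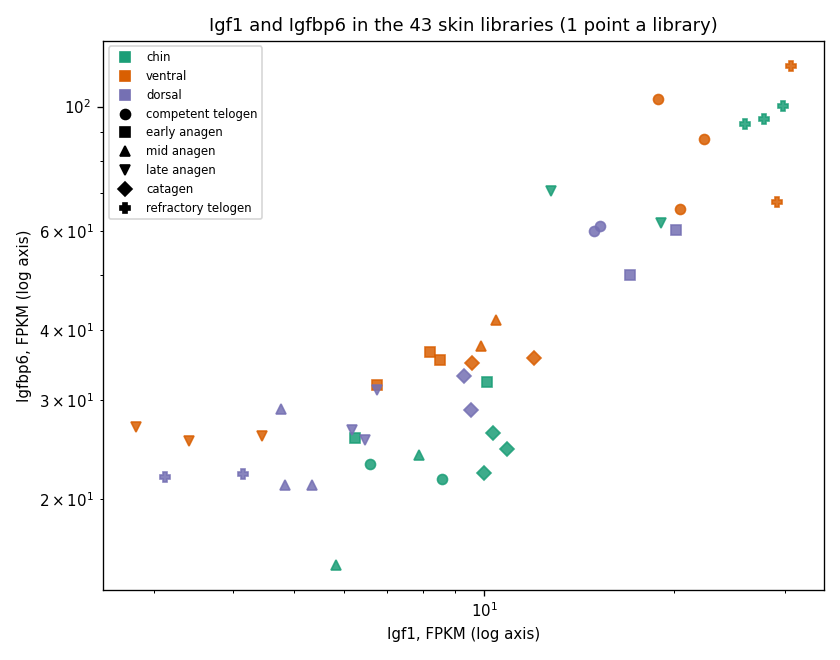
Igf1 against Igfbp6 in the 43 skin libraries, in FPKM on log axes, with the colour for the domain and the symbol for the labelled stage. Libraries high in Igf1 are high in Igfbp6, with the refractory telogen libraries of chin and ventral skin at the upper right and those of dorsal skin, at 3.12 to 4.15 FPKM of Igf1, at the lower left.

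Igf2, the fetal growth ligand whose gene is imprinted, was the lower of the ligands in most groups and varied most between replicates. The SD between replicates was 0.36 on the log2 scale, against 0.18 for Igf1. Chin refractory telogen held 13.56, 7.73 and 11.93 FPKM, ventral early anagen 11.48, 7.96 and 8.9, and dorsal early anagen 9.15 and 7.38. The highest mean, 13.6 FPKM in ventral mid anagen, came from libraries at 6.24 and 20.98, so that 1 library set it and the group overlapped the next in order. At the other end ventral catagen held 0.57 and 0.88 and dorsal late anagen 1.02, 0.76 and 0.42. From catagen to refractory telogen Igf2 rose in each domain, 4.42-fold in chin (log2 1.78, SE 0.28, adjusted p = 4.843e-06), 3.84-fold in ventral (log2 1.14, SE 0.34, adjusted p = 0.01108) and 3.86-fold in dorsal skin (log2 1.43, SE 0.34, adjusted p = 0.001069). The ventral rise was lost when ventral catagen replicate 1 or ventral refractory telogen replicate 1 was left out, with adjusted p up to 0.08516. Igf1 exceeded Igf2 in all chin libraries, by 2.20 to 8.39 times. It did not in dorsal refractory telogen, where the ratio of Igf1 to Igf2 was 0.611 to 0.654, nor in every library of ventral early anagen (0.589 to 1.03) and ventral mid anagen (0.470 to 1.67).

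H19, the long non-coding RNA next to Igf2 on chromosome 7, was the second closest of 12070 genes to the Igf2 pattern (r = 0.84) after Itm2a, a membrane protein gene (r = 0.86). The genes are 72622 bases apart and are expressed from opposite parental alleles. H19 ranged from 5.28 FPKM in ventral catagen to 98.3 ± 36.3 (SD, n = 3) in chin refractory telogen, and rose from catagen to refractory telogen in chin (log2 2.20), ventral (log2 1.80) and dorsal skin (log2 2.24), with adjusted p of at most 2.004e-06. The likeness of H19 and Igf2 was 0.92 over the same 13 groups.

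Igf1r, the receptor for both ligands, had the narrowest range of group means on the log2(FPKM + 1) scale, at 1.05. In FPKM its group means ran from 1.92 to 5.01, a ratio of 2.62. The lowest was dorsal catagen at 1.76 and 2.07, below the libraries of every other group. Against dorsal late anagen, at 3.01, 2.8 and 3.22, it was lower by 0.46 log2 units (SE 0.09, adjusted p = 0.0002211), and it then rose to 4.48 and 4.35 in dorsal refractory telogen (log2 0.90, SE 0.10, adjusted p = 3.451e-08). The dorsal catagen level was also lower than that in chin (log2 -0.70) and ventral catagen (log2 -0.61). The highest group was ventral early anagen with 5.25, 4.91 and 4.88. In refractory telogen the ventral libraries (4.4 and 2.99) overlapped both other domains, and the dorsal ones lay above the chin libraries (4.16, 3.38 and 3.69). The test among domains gave an adjusted p of 0.1371 for Igf1r, while that for Igf1 was 2.794e-13. The receptor and Igf1 thus had little likeness over the 18 groups (r = -0.14). The genes most like Igf1r were Tmem79 (r = 0.91), needed for a normal skin barrier, and F2rl1 (r = 0.91), the protease-activated receptor 2 of keratinocytes.

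Igfbp3, the main carrier of IGFs in serum and a product of keratinocytes in skin, was high in refractory telogen of all domains. Chin libraries held 145, 116 and 142 FPKM, dorsal libraries 86.23 and 82.67, and ventral libraries 83.25 and 42.13. Compared with catagen it rose 5.23-fold in chin (log2 2.34, SE 0.15, adjusted p = 3.176e-13), 3.40-fold in ventral (log2 1.63, SE 0.18, adjusted p = 5.299e-08) and 3.87-fold in dorsal skin (log2 1.90, SE 0.18, adjusted p = 1.025e-09). No refractory telogen library overlapped the catagen libraries of its domain, which lay between 18.05 and 27.1. Unlike Igf1, Igfbp3 therefore moved one way in all 3 domains at this step. The libraries labelled ventral early anagen, which were low in cycling genes, were the second highest group with 94.85, 91.79 and 88.24 FPKM. Chin competent telogen was lower than chin refractory telogen by 1.06 log2 units (SE 0.17, adjusted p = 7.091e-06). Dorsal competent telogen was lower than dorsal refractory telogen by 1.58 (SE 0.18, adjusted p = 2.064e-07). The smaller ventral difference was lost without ventral refractory telogen replicate 1, with an adjusted p of 0.6634.

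Over the 18 groups Igfbp3 followed 5 keratinocyte genes (Krt5, Krt14, Krt1, Krt10 and Krt15) with r = 0.89 (0.92 over 13 groups) and went against the genes of hair matrix and shaft with r = -0.87 (-0.89). The keratinocyte genes summed to 8916 to 10294 FPKM in chin refractory telogen and 4143 to 4406 in chin catagen, to 8253 to 8409 and 2548 to 2588 in dorsal skin, and to 14290 to 15146 in ventral early anagen. All 5 were detected in every group, and their part in the Igfbp3 level was not tested. The single genes most like Igfbp3 were Tppp (r = 0.94), a tubulin-binding protein gene, and Ank (r = 0.94), which encodes a pyrophosphate transporter.

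Igfbp2, a binding protein with an integrin-binding motif, changed most in ventral skin. There it went from 64.18, 63.61 and 47.31 FPKM in competent telogen to 6.56, 7.72 and 8.33 in early anagen and 61.03 and 46.21 in mid anagen. The groups on both sides stood far from early anagen, with log2 fold changes of -2.79 (SE 0.14, adjusted p = 1.062e-15) and 2.67 (SE 0.15, adjusted p = 5.036e-14). Both steps rest on the ventral early anagen libraries whose cycling genes went against their label. Those libraries also held 1944 to 2008 FPKM over 6 dermal fibroblast genes, against 5998 to 6169 in competent telogen and 3858 to 3875 in mid anagen, and these followed Igfbp2 over the 18 groups with r = 0.76 (0.85 over 13). Dorsal skin moved the other way over the first of these steps, from 14.61 and 12.88 to 49.36 and 42.77 FPKM in early anagen (log2 1.67, SE 0.17, adjusted p = 4.118e-09, and 1.43 relative to the median gene). Chin skin held 39.17 and 39.03 in competent telogen and 43.92 and 41.64 in early anagen, a difference that did not pass (adjusted p = 0.8486), and fell to 19.16 and 19.95 in mid anagen (log2 -1.09, SE 0.17, adjusted p = 2.979e-05). In catagen dorsal skin, at 29.51 and 27.68, was above chin (9.45 to 11.55) and ventral skin (11.91 and 13.73), and in refractory telogen this order was turned, with 10.93 and 12.44 in dorsal and 26.93 to 39.41 in chin skin. The dorsal level was higher than chin by 1.39 log2 units in catagen (SE 0.15, adjusted p = 1.471e-08) and lower by 1.44 in refractory telogen (SE 0.15, adjusted p = 1.475e-08). Fam216a (r = 0.90) and the calmodulin gene Calm3 (r = 0.89) were most like Igfbp2.

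Igfbp5, a matrix-bound binding protein, is the neighbour of Igfbp2 on chromosome 1. Igfbp2 lies at chr1:72824503-72852474 on the plus strand and Igfbp5 at chr1:72857932-72874884 on the minus strand of GRCm38, so that their 3′ ends face each other over 5457 bases. Their levels had little likeness over the 18 groups (r = 0.31). Igfbp5 was highest in chin refractory telogen, with 50.18, 30.23 and 56.96 FPKM, followed by ventral refractory telogen with 28.89 and 25.84. From catagen, at 9.64 to 10.67 in chin and 12.15 and 12.4 in ventral skin, this was a rise of 2.02 (SE 0.15, adjusted p = 8.422e-12) and 1.09 log2 units (SE 0.19, adjusted p = 3.451e-05). In dorsal skin Igfbp5 fell over the same step, from 25.62 and 27.2 to 14.34 and 14.73 (log2 -0.82, SE 0.19, adjusted p = 0.000584). Its dorsal catagen level, like that of Igfbp2, was above chin and ventral catagen. Vegfb, a vascular growth factor gene, and S100a4, a calcium-binding protein of fibroblasts and leukocytes, were most like it (r = 0.89 and 0.88).

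Igfbp4, usually an inhibitor of IGF action that is removed by the protease PAPPA, had the narrowest range as a ratio of group means in FPKM, from 31.5 to 79.8 (ratio 2.54), and on the log2(FPKM + 1) scale a range of 1.32. The highest were dorsal early anagen at 84.74 and 74.78 and ventral competent telogen at 87.43, 75.69 and 76.13, which overlapped. It fell from dorsal early to mid anagen, to 28.92 to 34.25, by 1.32 log2 units (SE 0.11, adjusted p = 1.026e-10). From catagen to refractory telogen it rose 2.12-fold in chin and 1.66-fold in ventral skin, while dorsal catagen (34.95 and 37.06) and refractory telogen (34.3 and 36.23) overlapped. The dermal fibroblast genes followed Igfbp4 with r = 0.85 (0.82 over 13 groups). So did the macrophage genes with r = 0.83 (0.89), and the genes of endothelium had r = 0.46 (0.87). The likeness was thus not particular to fibroblast genes, and the part of these lists was not tested. Arap1 (r = 0.95) and Ppm1m (r = 0.94), a GTPase regulator and a phosphatase gene, were most like it.

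Igfbp7, which is found around vessels and in matrix, was highest in ventral competent telogen at 431, 441 and 365 FPKM and in chin refractory telogen at 377, 295 and 338. Its lowest group was dorsal catagen at 57.73 and 59.61. Dorsal libraries were also high in early anagen, at 327 and 312, and low in refractory telogen, at 94.23 and 91.71. From dorsal competent telogen to early anagen Igfbp7 rose 2.72-fold (log2 1.44, SE 0.17, adjusted p = 5.839e-08). The median over all genes was 0.25 in that contrast, and relative to it the rise was 1.19. In refractory telogen the dorsal level lay 1.84 log2 units below chin (SE 0.15, adjusted p = 1.735e-10) and 1.34 below ventral skin (SE 0.17, adjusted p = 8.932e-07). The 6 endothelial genes followed Igfbp7 with r = 0.36 and the dermal fibroblast genes with r = 0.78, and over 13 groups these were 0.54 and 0.70. Zdhhc7, a palmitoyltransferase gene (r = 0.96), and Fam53a (r = 0.95) were most like it.

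The steps between stages were then counted. The comparison of competent with refractory telogen is counted with them but is not a step in time. There rose and fell mean higher and lower in competent telogen. Over the 18 steps, 92 changes of the 9 members passed, against 28.8% of all gene and step combinations. In chin skin, from competent telogen to early anagen 0 of 9 members passed in limma (2.14% of genes), and 1, Igfbp3, had an unadjusted p under 0.05. From early to mid anagen 4 of 9 fell (18.1% of genes), from mid to late anagen 3 rose and 2 fell (19.7%), and from late anagen to catagen 3 fell (13.1%). From catagen to refractory telogen 8 of 9 rose and 0 fell (48.0%). In competent over refractory telogen Igf1r was higher and 7 were lower (36.3%). Several of the smaller chin changes rest on single libraries. The fall of Igfbp6 from early to mid anagen was at the threshold (adjusted p = 0.04976) and was lost under 42 of the alternatives, and that of Igf1r was lost without any 1 of the 4 libraries compared. From mid to late anagen the falls of Igfbp2 (lost under 9 alternatives) and Igfbp7 (adjusted p = 0.437 without chin mid anagen replicate 1, and lost also without chin late anagen replicate 2) were each lost when 1 library was left out. From late anagen to catagen the falls of Igf1 (adjusted p = 0.4829) and Igfbp4 (adjusted p = 0.1399) were lost without chin late anagen replicate 2, and the rise of Igf1r between refractory and competent telogen was lost without either competent telogen library or refractory telogen replicate 2 (adjusted p up to 0.1145). The rises of Igf1, Igf2 and Igfbp6 to late anagen, the fall of Igfbp6 to catagen and all 8 rises to refractory telogen passed under every alternative. In ventral skin 3 rose and 5 fell from competent telogen to early anagen (42.5%), 2 rose and 3 fell to mid anagen (42.4%), 5 fell to late anagen (24.2%), Igf1 rose and Igfbp3 fell to catagen (5.93%), 8 rose to refractory telogen (33.6%), and 3 rose and 3 fell between refractory and competent telogen (42.6%). In dorsal skin 5 rose from competent telogen to early anagen (43.4%), where the rise of Igf1r (log2 0.30) turned to -0.04 under median-of-ratios scaling and -0.08 under quantile normalization and that of Igfbp5 was lost under both (adjusted p up to 0.8088) and without any 1 of the 4 libraries compared, 8 fell to mid anagen (39.2%), Igfbp5 rose to late anagen (2.68%), 2 rose and 3 fell to catagen (38.7%), 4 rose and 3 fell to refractory telogen (43.7%), and 2 rose and 2 fell between refractory and competent telogen (22.2%). The dorsal rise of Igfbp5 to late anagen, with an adjusted p of 0.04221, was lost under 21 of the alternatives, leaving out any of the 6 libraries compared among them. Over all domains, 20 of the 92 changes were lost when 1 library was left out. They included Igf1r from ventral competent telogen to early anagen and on to mid anagen, Igfbp7 from ventral early to mid anagen (without mid anagen replicate 2), Igfbp6 from ventral mid to late anagen, Igf2 and Igfbp2 at the ventral step to refractory telogen, Igf1 and Igfbp3 between ventral refractory and competent telogen, and Igf1 and Igfbp3 from dorsal late anagen to catagen. The median gene moved by more than 0.1 log2 units in 5 of these comparisons. It moved by -0.16 from chin early to mid anagen, -0.10 from ventral competent telogen to early anagen, and 0.22 in ventral competent over refractory telogen. In dorsal skin it moved by 0.25 and -0.18 at the steps into and out of early anagen. Every member change that passed kept its sign relative to the median gene.

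The step into refractory telogen set dorsal skin apart from the other domains. In chin and ventral skin the same 8 members rose (Igf1, Igf2, Igfbp2, Igfbp3, Igfbp4, Igfbp5, Igfbp6 and Igfbp7), and Igf1r changed by -0.00 in chin and 0.06 log2 units in ventral skin. In dorsal skin Igf2, Igf1r, Igfbp3 and Igfbp7 rose while Igf1, Igfbp2 and Igfbp5 fell. The median change of the members was 1.61 in chin, 1.09 in ventral and -0.03 log2 units in dorsal skin, and that of all genes tested 0.09, -0.03 and 0.00. Without ventral refractory telogen replicate 2 the ventral rise of Igfbp2 no longer passed (adjusted p = 0.07446). The dorsal changes rest on the dorsal catagen libraries that stood apart in cycling and hair matrix genes. Some marker lists also moved differently in dorsal skin over this step. The 6 dermal fibroblast genes summed to 780 to 834 FPKM in catagen and 1673 to 3015 in refractory telogen of chin, 993 to 1010 and 2126 to 2705 of ventral, and 1439 to 1447 and 1104 to 1140 of dorsal skin. The 5 macrophage genes went from 16.2 to 17.4 up to 47.8 to 81.9 in chin, from 15.3 to 18.6 up to 33.9 to 39.5 in ventral, and from 22.5 to 26.3 down to 18.2 to 19.3 in dorsal skin. The 6 adipocyte genes held 1320 to 1545 and then 1729 to 1927 in chin, 1739 to 1867 and then 3050 to 3276 in ventral, and 1221 to 1233 and then 1091 to 1122 in dorsal skin. These 3 lists were thus higher in refractory telogen than catagen in chin and ventral skin and lower in dorsal skin. Some other lists moved one way in all 3 domains. The keratinocyte genes rose, in dorsal skin from 2548 to 2588 up to 8253 to 8409 FPKM. The skeletal muscle genes also rose, in dorsal skin from 1594 to 1642 up to 2471 to 2605. The cycling genes fell, in dorsal skin from 342 to 348 down to 41.4 to 42.6. The summed hair matrix and shaft genes fell in chin (12507 to 13491 down to 2662 to 3723) and ventral skin (10665 to 11546 down to 6401 to 9029). In dorsal skin their sum rose, from 3891 to 3917 up to 6770 to 7100. Their mean log2 level fell in all 3 domains, in dorsal skin from 7.08 to 7.09 down to 6.46 to 6.47. The part of the lists in the members' changes was not tested.

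**Figure D4:**
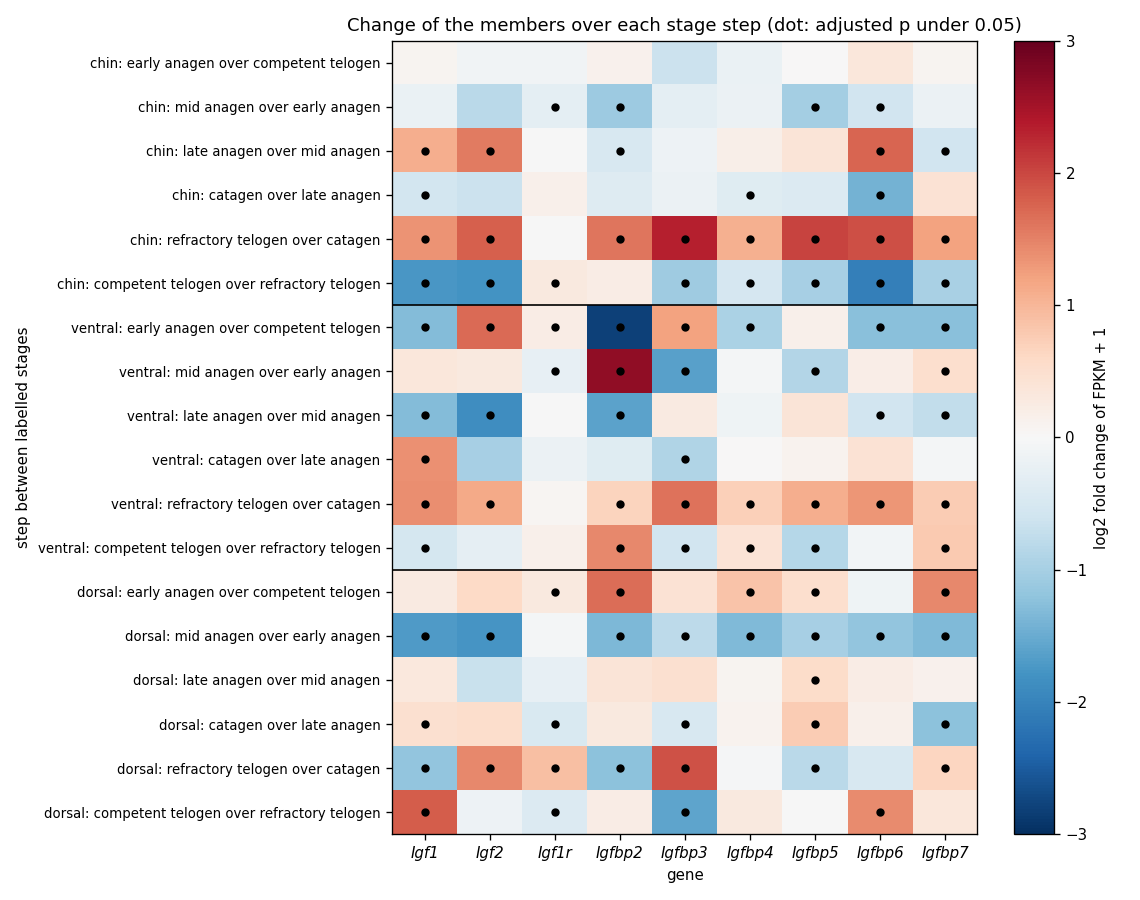
Log2 fold change of FPKM + 1 of the 9 members (columns) over the 18 comparisons of labelled stages (rows). Red is higher and blue lower in the stage named first in the row, with a dot where the adjusted p was under 0.05. The rows of competent over refractory telogen are not steps in time. The rows from catagen to refractory telogen are red for 8 members in chin and ventral skin and mixed in dorsal skin.

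Differences between domains within a stage were counted in the same way. In anagen 8 of 9 members differed among the domains early (51.6% of genes), 7 in its middle (38.1%) and 6 late (20.8%). In catagen 5 differed (42.9%), in refractory telogen 8 (42.2%) and in competent telogen 9 (54.0%). The 7 at mid anagen became 3 when the libraries of that stage were fitted alone. Between domains taken as pairs, 87 differences passed over 18 contrasts, against 26.4% of all gene and pair combinations. At refractory telogen dorsal skin was lower than chin for 8 of 9 members (34.8% of genes passed) and lower than ventral skin for 6 (13.7%), with none passing as higher. Ventral skin was lower than chin for 5 (30.7%). In limma Igf2 (log2 0.83, adjusted p = 0.117) and Igf1r (log2 0.22, adjusted p = 0.1676) were higher in dorsal than ventral skin without passing. Igfbp3 (means 84.5 and 62.7 FPKM) was also higher without passing. All 9 members had an unadjusted p under 0.05 in that contrast. Relative to the shift of the median gene, which was -0.14 between dorsal and chin and -0.17 between ventral and chin skin, each difference that passed at this stage kept its sign. At competent telogen 5 members were higher and 2 lower in ventral than chin skin (23.0%), 2 higher and 5 lower in dorsal than chin (36.7%), and 1 higher and 7 lower in dorsal than ventral skin (47.9%). The shift of the median gene was -0.19 and -0.25 in the dorsal contrasts, and the difference of Igf1 from ventral skin, -0.42 log2 units with an adjusted p of 0.03882, was -0.17 relative to it. Under median-of-ratios scaling its direction was turned, and it was lost under 8 alternatives, leaving out either dorsal library or ventral replicate 1 or 3 among them. At early anagen ventral skin was higher than chin for 2 and lower for 1 (32.9%), and dorsal skin was higher than chin for 5 (27.0%) and higher than ventral skin for 5 and lower for 2 (41.7%). At mid anagen ventral skin was higher than chin for 5 (22.1%), while dorsal skin was lower than chin for Igfbp3 alone (17.2%) and lower than ventral skin for 6 (28.3%). At late anagen ventral skin was lower than chin for 3 (15.6%), dorsal skin was higher than chin for 1 and lower for 4 (19.5%), and higher than ventral skin for 1 and lower for 2 (3.14%). At catagen 0 of 9 members differed between ventral and chin skin in limma (5.19%), where 3 had an unadjusted p under 0.05, and dorsal skin was higher for Igfbp2 and Igfbp5 and lower for Igf1r and Igfbp7 than both chin (41.3%) and ventral skin (35.4%). Of the 87 differences, 23 were lost when 1 library was left out and 29 under at least 1 alternative of any kind. At refractory telogen those lost under an alternative were Igf2 and Igfbp3 in dorsal against chin skin. They were Igfbp2 and Igfbp5 in dorsal against ventral skin, and Igfbp2, Igfbp5 and Igfbp7 in ventral against chin skin. The paired contrasts share groups with each other and are not independent.

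The ear tissues were compared with dorsal skin within the second table. In ear skin 8 of 9 members were higher than in dorsal competent telogen (44.7% of the 19299 genes tested were higher) and 0 lower (14.6%). In the cartilage/muscle complex 8 were higher than in dorsal skin (42.8%) and Igfbp3 was lower (28.3%), and against ear skin 6 were higher (28.0%) and 2 lower (38.5%). The median gene was shifted by 0.33 log2 units in ear over dorsal skin, by 0.24 in cartilage/muscle over dorsal skin and by -0.11 in cartilage/muscle over ear skin, so relative differences are given beside the fits. As the stage label of the dorsal libraries was in doubt, dorsal refractory telogen was also taken as the dorsal group. The 17 differences from dorsal skin still passed, but several sizes moved. Ear over dorsal skin was then 11.2-fold in place of 2.69-fold for Igf1, 8.05-fold in place of 2.93-fold for Igfbp6, and 1.2-fold in place of 3.64-fold for Igfbp3 (log2 0.25, adjusted p = 0.03325). The complex over dorsal skin was 15.3-fold in place of 3.70-fold for Igf1 and 22.9-fold in place of 8.31-fold for Igfbp6, and dorsal skin exceeded the complex 15.4-fold in place of 5.04-fold for Igfbp3. The values that follow use the competent telogen libraries of the same table.

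Igf2 showed the widest gap of the ligands. Dorsal libraries read 4.23 and 6 FPKM, ear skin 15.26 and 12.16, and the cartilage/muscle complex 90.66, 92.12 and 81.98. No tissues overlapped, and the complex was above ear skin by 2.61 log2 units (SE 0.15, adjusted p = 1.74e-05, 2.71 relative to the median gene) and above dorsal skin by 3.88 (SE 0.15, adjusted p = 2.75e-06, 3.64 relative). H19 did not follow it here. H19 was lower in ear skin, at 5.81 FPKM, than in dorsal skin, at 68.3 FPKM (log2 -3.35, SE 0.15, adjusted p = 1.253e-05), while Igf2 was higher by 1.27 log2 units (SE 0.17, adjusted p = 0.0009869). Igf1 was at 15.26 and 14.93 in dorsal skin, 41.59 and 39.62 in ear skin and 54.81, 54.23 and 58.5 in the complex, and ear over dorsal skin came to 1.37 log2 units (SE 0.06, adjusted p = 1.484e-05, 1.04 relative). Igf1 over Igf2 was 2.73 to 3.26 in ear skin and 0.589 to 0.714 in the complex. Igf1r was 2.30 times as high in the complex (7.28, 7.76 and 6.05 FPKM) as in dorsal skin (3.06 and 3.04), and in ear skin, at 3.42 and 3.72, its difference from dorsal skin did not pass (log2 0.17, SE 0.12, adjusted p = 0.2645).

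Among the binding proteins, Igfbp3 and Igfbp5 separated the ear tissues most. Igfbp3 read 106 and 94.61 FPKM in ear skin, 29.54 and 25.76 in dorsal skin and 5.37, 5.66 and 5.42 in the complex. The complex thus held the least, 3.97 log2 units under ear skin (SE 0.09, adjusted p = 2.298e-07, -3.86 relative). The 5 keratinocyte genes went the same way, with 11218 to 11625 FPKM in ear skin, 3957 to 4050 in dorsal skin and 3.47 to 4.11 in the complex, where 1 of 5 reached 0.5 FPKM, and their part was not tested. Igfbp5 read 32.19 and 34.21 in ear skin, 14.46 and 14.32 in dorsal skin and 136, 137 and 142 in the complex (log2 2.03 over ear skin, SE 0.05, adjusted p = 5.208e-07, 2.14 relative). Igfbp6 read 179 and 175 in ear skin, 61.18 and 59.93 in dorsal skin and 474, 549 and 486 in the complex, where it passed Igfbp7 as the highest member. Igfbp2 was highest in ear skin, at 154 and 126 FPKM against 14.61 and 12.88 in dorsal skin, a ratio of 10.2 (log2 3.25, SE 0.15, adjusted p = 1.289e-05, 2.92 relative), and read 84.17, 101 and 79.52 in the complex. Igfbp7 was higher in ear skin (466 and 374) than in dorsal skin (118 and 116), and its levels in ear skin and the complex (423, 517 and 411) overlapped (adjusted p = 0.5342). Igfbp4 was higher in ear skin (79.97 and 63.99) than in dorsal skin (43.35 and 43.59) by 0.71 log2 units (SE 0.16, adjusted p = 0.01092, 0.38 relative). That difference was lost under 4 alternatives, which were median-of-ratios scaling (adjusted p = 0.2582) and leaving out either dorsal library or ear skin replicate 2. Its excess in the complex over ear skin (log2 0.52, SE 0.15, adjusted p = 0.02196) was lost after rescaling to TPM (adjusted p = 0.2179) and without ear skin replicate 3.

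The marker lists show what the tissues held. In the complex the 6 skeletal muscle genes summed to 12271 to 14404 FPKM and the 6 chondrocyte genes to 1522 to 1877, against 819 to 865 and 30.4 to 31.8 in ear skin, and Shh, Hoxc13, Krt31 and Krt71 were listed at 0. The genes of hair matrix and shaft stood at 9466 to 9528 in the dorsal libraries and at 78.7 to 80.6 in ear skin, and the dermal fibroblast genes at 1243 and at 10363 to 10697. The part of these differences in makeup in the members' levels was not tested.

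**Figure D5:**
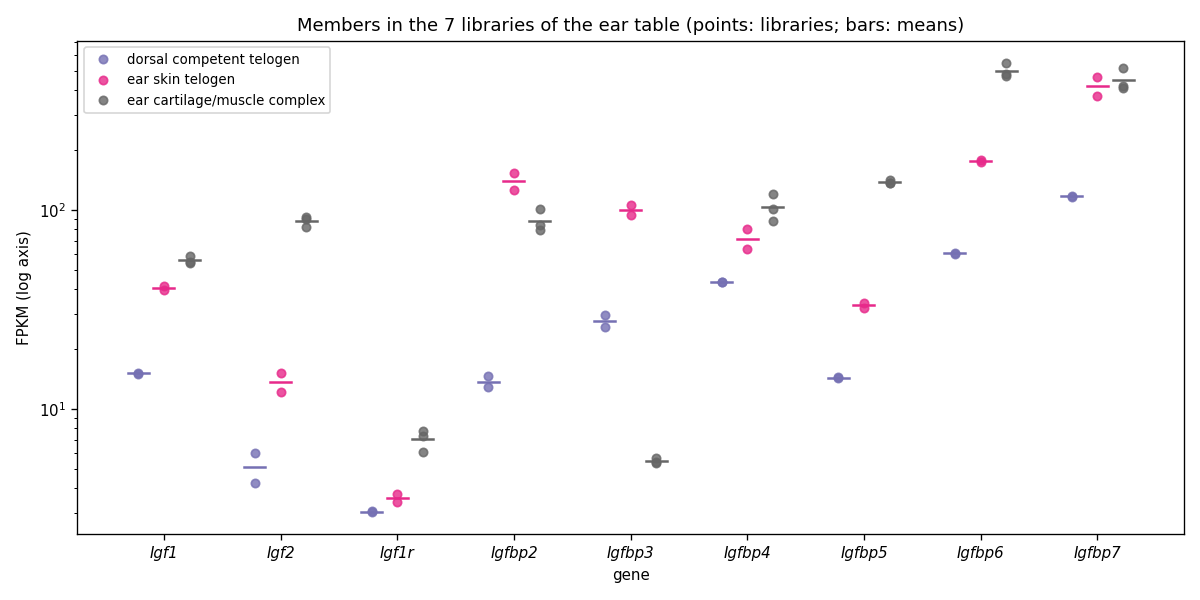
FPKM of the 9 members on a log axis in the 7 libraries of the ear table, from dorsal skin, ear skin and the complex, with points for libraries and bars for means. Igf2, Igfbp5 and Igfbp6 stand highest in the complex, and Igfbp3 lowest, at 5.37 to 5.66 FPKM.

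The wider pathway was read from 32 genes of IGF reception, transport and signalling. Of these, 28 were high enough to be tested in the skin domains, and Insrr, Irs4, Igfbp1 and Igfbpl1 were not. Of the 28, 26 showed the interaction of domain and stage (73.3% of all genes), and 23 differed among stages in chin (66.2%), 25 in ventral (70.2%) and 27 in dorsal skin (68.5%). From catagen to refractory telogen 16 rose and 1 fell in chin (48.0% of all genes passed), 6 rose and 1 fell in ventral (33.6%), and 9 rose and 10 fell in dorsal skin (43.7%). From dorsal early to mid anagen 2 rose and 18 fell (39.2%). In ventral skin the 7 of 28 that passed at the step to refractory telogen were a smaller share than that of all genes.

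By the rule for naming (interaction passed, highest mean at least 5 FPKM and at least 3 times the lowest) 14 of them stood out. Among receptors and adaptors, the insulin receptor Insr ranged from 1.38 to 6.79 ± 1.58 FPKM (SD, n = 2), highest in dorsal early anagen, where the adaptors Grb10 (7.94) and Shc1 (23.7) were highest too. Irs2, a docking protein of both receptors, ran from 0.945 in dorsal catagen to 6.16 ± 0.874 (SD, n = 3) in chin refractory telogen, and the adaptor Grb14 from 2.78 in ventral late anagen to 14.5 ± 2.17 (SD, n = 3), also in chin refractory telogen. The kinase subunits Pik3r1 (9.12 to 38.3) and Pik3ca (4.75 to 14.7) and the transcription factor Foxo3 (12.6 to 63.7), which is restrained by IGF signalling, peaked in different groups, Pik3r1 in chin refractory telogen and the other two in dorsal catagen, where Igf1r was lowest. Of the genes that act on ligand carriers, the proteases Htra1 (39.0 to 188), Htra3 (11.1 to 56.2) and Adamts1 (3.25 to 12.8) and the acid-labile subunit Igfals (0.755 to 5.39) each ranged at least 3.94-fold, with Htra1 and Igfals highest in ventral refractory telogen. Igf2bp3, an RNA-binding protein that binds Igf2 mRNA, went from 0.797 in chin refractory telogen to 15.0 ± 2.11 (SD, n = 2) in ventral mid anagen. The mean of Igf2 was also highest there, but its libraries stood apart, at 6.24 and 20.98 FPKM. H19 completes the list. Among the ear tissues, 27 of the 32 genes were tested, of which 12 were higher and 4 lower in ear than dorsal skin (44.7% and 14.6% of all genes, near the same shares), 17 higher and 6 lower in the complex than dorsal skin (42.8% and 28.3%), and 17 higher and 7 lower in the complex than ear skin (28.0% and 38.5%). Grb14 stood at 5.04 FPKM in dorsal skin, 4.72 in ear skin and 69.9 in the complex, and Irs2 at 2.58, 2.22 and 29.0.

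The gene models bear on what was counted. On GRCm38 Igf1 lies at chr10:87858265-87937042, Igf2 at chr7:142650766-142666816 on the minus strand, Igf1r at chr7:67952827-68233668, Igfbp3 at chr11:7206086-7213923 on the minus strand, Igfbp4 at chr11:99041244-99054392, Igfbp6 at chr15:102144362-102149511 and Igfbp7 at chr5:77349240-77408041 on the minus strand. The library protocol does not mark the strand, so reads of a gene and an antisense partner cannot be told apart. Igf2 is overlapped by Igf2os, listed at no more than 0.14 FPKM in the skin libraries, Igf1 by Igf1os, listed at no more than 0.92 in the skin and at 0.2 to 3.19 in the ear table, and Igfbp7 by Polr2b, listed at 4.4 to 18.79 FPKM.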

How the data were processed

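Total RNA of whole skin or ear tissue was sequenced in pairs after full-length cDNA synthesis and tagmentation, and per the methods of the study the reads were aligned to mm10 and quantified with RSEM 1.2.25 on GENCODE vM8. The authors deposited FPKM values, and their methods mention a correction for batch effects without naming the batches, so its effect on these values cannot be told apart from that of the groups. Read counts were not used here. From the steps of low FPKM values, depth was estimated as 6770753 to 29639629 fragments per library (median 12931119), so that 1 fragment on 1 kb was worth 0.0337 to 0.148 FPKM.

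Genes that reached 0.5 FPKM in 2 libraries or more entered limma 3.58.1 (R 4.3.3) on log2(FPKM + 1), with a mean-variance trend and adjustment over all genes. Fold changes are on that scale and understate those of low genes. All 18 groups entered the skin fit, and the ear table was fitted on its own. The code was tested on simulated data. Promoters came from RefSeq (GRCm38.p6), and 46488 of 46983 gene IDs were found in the annotation used for positions. The members, pathway list and marker lists were chosen with earlier results of these data known. The text names all 9 members, the pathway genes that passed the rule stated with them, and the 2 genes closest to each member among those with a highest group mean of at least 5 FPKM. Replicate numbers did not pair the libraries (median correlation of deviations 0.0030 for the same and -0.0028 for different numbers).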

Additional observations from a re-analysis of the deposited data

Results flagged for a closer look

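The change of every member over the stages depended on the domain, by limma's test of that interaction with adjustment over all genes. The adjusted p was 7.226e-14 for Igf1, 1.042e-08 for Igf2 and 1.575e-05 for Igf1r. Among the binding proteins it was 8.381e-16 for Igfbp2, 7.351e-08 for Igfbp3, 3.87e-10 for Igfbp4, 5.744e-08 for Igfbp5, 1.503e-11 for Igfbp6 and 1.147e-11 for Igfbp7. Without ventral catagen and ventral refractory telogen, over the 4 stages left, Igfbp5 no longer passed (adjusted p = 0.3549). As 73.3% of all genes tested passed the same test, the count is not particular to the members. No group held 4 or more libraries, so single libraries were not examined for outlying values by Dixon's test.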

How the results depend on the processing

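Of 283 single results on the members that passed, 217 passed under every alternative. The number of members that differed among domains at mid anagen was 3 in place of 7 when only the libraries of that stage were fitted, a fit with fewer libraries to estimate the spread. Directions turned for 2 results: the dorsal change of Igf1r from competent telogen to early anagen was -0.0426 under median-of-ratios scaling and -0.0800 under quantile normalization, and the dorsal difference of Igf1 from ventral skin at competent telogen was 0.0007 under median-of-ratios scaling. The calls lost were 5 with a pseudocount of 0.1, 18 without a filter on low values, 22 after rescaling to TPM, 19 with median-of-ratios scaling, 15 with quantile normalization, 2 without the variance trend and 29 when only the libraries of the stage or domain were fitted. With 1 library left out at a time, the changes over stage steps that passed numbered 86 to 99, against 92, and the differences over domain pairs 80 to 97, against 87. With the replicate number as a block, 5 of 267 calls were lost and the interaction passed for 9 members. The ear contrasts with ear skin could not be fitted with the block. Averaging libraries that agree within sampling noise was not run, since none did. The 4 alternatives that leave out groups in doubt were chosen after seeing the data. Igf2, at 0.42 to 0.94 FPKM in some libraries, lay nearest to what depth can resolve, and groups of 2 or 3 libraries limit the precision of every member.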
